A study of Mus musculus with 36 samples.

Results

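Ppp1r3f, Prickle3 and Clcn5 are 3 X-linked genes that lie within about 0.5 Mb of each other near 7 Mb on the mouse X chromosome, and their allelic transcription was followed here through Xist-induced X chromosome inactivation. They are 3 of the 252 genes with an allelic ratio in either of the deposited tables, and all 3 are present in both. The genes were chosen by their allelic ratios in these same libraries, so the values below are a description: no p-value of them is given, and counts of members that passed a threshold support nothing here. The allelic ratio is Xi/(Xi+Xa), the fraction of a gene's allele-assigned reads that come from the inactive X chromosome (Xi, strain 129S) as opposed to the active X (Xa, Cast). A ratio near 0.5 stands for equal transcription of both alleles and a ratio near 0 for a silenced Xi allele. An intermediate ratio can come from some cells with an unsilenced allele or from partial silencing in each cell, which bulk libraries cannot tell apart.

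The measurement was ChrRNA-seq, sequencing of chromatin-associated RNA, in 36 libraries from 8 interspecific 129S × Cast female (XX) mouse embryonic stem cell (mESC) lines. In every line Xist on the 129S X chromosome is driven by a TetOn promoter that responds to doxycycline (dox, 1 µg/ml). iXist-ChrX is the parental line, and SMCHD1 KO was derived from it. Halo-SMCHD1 carries a Halo tag on endogenous SMCHD1 and, per the study, an eGFP-CIZ1 transgene that marks the Xi in imaging. LRIF1 KO, E147A, Y353C, G137E and K518E were each derived from Halo-SMCHD1, so all of these carry the tag and the transgene. E147A, Y353C, G137E and K518E are biallelic substitutions in the GHKL ATPase domain of endogenous SMCHD1. Earlier in vitro work cited by the study, on the ATPase domain alone, found activity lost or strongly reduced in the first pair and raised in the second. The study adds that the effect in the full-length protein may differ. Each line is 1 clone, so a line and its clone cannot be told apart. Halo-SMCHD1 and its 5 derivatives have 1 uninduced library and 1 library after 24 h of dox, both undifferentiated. Libraries from cells differentiated in monolayer under dox were made at day 7 for every line (3 for Halo-SMCHD1 and for G137E, 2 for each other line) and at day 5 for Halo-SMCHD1, G137E and K518E (2 each). The study describes replicates as repeated experiments on the same clone, so the spread between them holds no difference between clones. The tables hold ratios and no expression levels, so markers of mESCs or of differentiated cells were not checked.

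In X chromosome inactivation, Xist RNA coats the chromosome it is transcribed from and silences its genes. SMCHD1, a non-canonical SMC family protein, accumulates on the inactive X and keeps a subset of genes silent. LRIF1 links SMCHD1 to chromatin marked by H3K9me3 and HP1. Ppp1r3f encodes a regulatory subunit that directs protein phosphatase 1 to glycogen. Prickle3 encodes a member of the Prickle family, LIM domain proteins best known from planar cell polarity. Clcn5 encodes the endosomal chloride/proton exchanger that is mutated in human Dent disease.

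In the deposited tables, which use the mm10 assembly, Clcn5 spans chrX:7158411-7319358 on the minus strand, Ppp1r3f chrX:7558561-7574281 on the minus strand and Prickle3 chrX:7657378-7668186 on the plus strand. The starts of 116 of 239 genes matched to RefSeq lie 1 base before the RefSeq start, those of Ppp1r3f and Prickle3 among them, so the listed starts may be counted from 0. The measured gene 2010204K13Rik lies in the gap of 239 kb between Clcn5 and Ppp1r3f, and Ccdc22 lies in the gap of 83.1 kb between Ppp1r3f and Prickle3. Clcn5 is long, 160948 bases against a median of 25967 bases over the 249 genes of the first table, while Ppp1r3f (15721 bases) and Prickle3 (10809 bases) are below that median. The annotation (GENCODE vM21) also places other transcripts inside the members. The non-coding transcript Gm36995 covers 15680 bases of Ppp1r3f on the same strand, so reads of both cannot be told apart. Foxp3 and the non-coding transcript Flicr overlap the 5′ end of Ppp1r3f on the other strand, and Plp2 overlaps the 3′ end of Prickle3 on the other strand. Clcn5 hosts 5 miRNA genes on its own strand, Mir500, Mir501, Mir362, Mir188 and Mir532. Counting was strand-specific, per the study's methods.

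The 250 bases upstream of the annotated start of each gene are shown because CpG-rich promoters of Xi genes are known sites of SMCHD1-dependent DNA methylation and the 3 genes differ in CpG content. The sequences are from RefSeq (GRCm38.p6), read 5′ to 3′ on the gene's own strand with each CpG in capitals, and lie at chrX:7319359-7319608 (minus strand) for Clcn5, at chrX:7574282-7574531 (minus strand) for Ppp1r3f and at chrX:7657129-7657378 (plus strand) for Prickle3.
Clcn5: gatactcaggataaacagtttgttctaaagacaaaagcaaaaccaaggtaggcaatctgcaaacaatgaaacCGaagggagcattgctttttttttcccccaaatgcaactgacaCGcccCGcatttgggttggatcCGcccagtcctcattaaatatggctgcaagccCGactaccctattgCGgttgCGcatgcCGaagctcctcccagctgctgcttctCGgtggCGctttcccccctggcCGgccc
Ppp1r3f: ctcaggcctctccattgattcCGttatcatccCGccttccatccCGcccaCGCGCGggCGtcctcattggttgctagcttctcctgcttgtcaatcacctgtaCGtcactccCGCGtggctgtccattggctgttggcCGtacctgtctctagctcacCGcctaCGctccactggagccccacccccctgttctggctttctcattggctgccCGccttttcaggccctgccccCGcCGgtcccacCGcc
Prickle3: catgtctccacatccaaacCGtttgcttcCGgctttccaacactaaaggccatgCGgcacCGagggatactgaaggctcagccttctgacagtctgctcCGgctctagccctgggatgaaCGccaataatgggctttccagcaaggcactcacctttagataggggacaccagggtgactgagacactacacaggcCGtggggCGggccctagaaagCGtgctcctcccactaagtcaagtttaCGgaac

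The Ppp1r3f window held 17 CpGs with a GC share of 63.2%, and 30.9% of 259 upstream windows of measured genes held as many or more. Prickle3 held 10 CpGs (56.0% GC) and this start of Clcn5 held 11 (52.4% GC), close to the median of 12 over all windows. RefSeq lists a second start of Clcn5 inside the gene, at which the same length of sequence held 3 CpGs. Of the measured genes, 201 had a window in the RefSeq table, and CpGs were counted as the letters CG, which read the same on both strands. No binding or methylation value of these windows was used here.

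Before induction Ppp1r3f was transcribed about equally from both alleles. Its ratio in the 6 uninduced libraries was 0.507 in Halo-SMCHD1, 0.500 in LRIF1 KO, 0.509 in E147A, 0.505 in Y353C, 0.500 in G137E and 0.459 in K518E. Clcn5 was slightly below equality in every line, from 0.441 to 0.464, and Prickle3 ranged more widely, from 0.375 in G137E to 0.556 in Halo-SMCHD1. The library medians over all genes lay between 0.514 and 0.524, so all 6 values of Ppp1r3f and of Clcn5, and 5 of 6 of Prickle3, were below the median. Xist itself came from the 129S allele at a ratio of 0.997 or more in every dox-treated library. Its ratio was already between 0.881 and 0.995 in the 6 uninduced libraries. As no Xist level was available, induction was not checked here.

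After 24 h of dox the lines fell into different positions for Ppp1r3f. Its ratio was 0.327 in Halo-SMCHD1, 0.331 in LRIF1 KO and 0.300 in K518E, against 0.450 in E147A, 0.443 in Y353C and 0.413 in G137E. The first 3 lines kept between 64.6% and 66.2% of their uninduced ratio and the other 3 kept between 82.6% and 88.3%. Each value is a single library with no replicate. The median over all genes was also lower in the first 3 lines, by a smaller margin, with 42.0% kept in K518E, 45.9% in Halo-SMCHD1 and 50.2% in LRIF1 KO, against 55.1% in E147A, 51.4% in Y353C and 54.7% in G137E. In each library Ppp1r3f was above the library median, and between 71.5% and 92.4% of genes had a lower ratio.

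Clcn5 at 24 h stayed within a narrow band, from 0.194 in K518E to 0.246 in E147A, and kept between 42.4% and 55.0% of its uninduced ratio. This was close to the all-gene median of the lines, 42.0% to 55.1%. Prickle3 was 0.150 in Halo-SMCHD1 and 0.177 in K518E but between 0.296 and 0.333 in LRIF1 KO, E147A, Y353C and G137E. In these single libraries LRIF1 KO stood with the 3 ATPase mutants of higher ratio for Prickle3, whereas for Ppp1r3f it stood with Halo-SMCHD1. Their depth is unknown, and uninduced Prickle3 already ranged from 0.375 to 0.556, highest in Halo-SMCHD1.

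**Figure D1:**
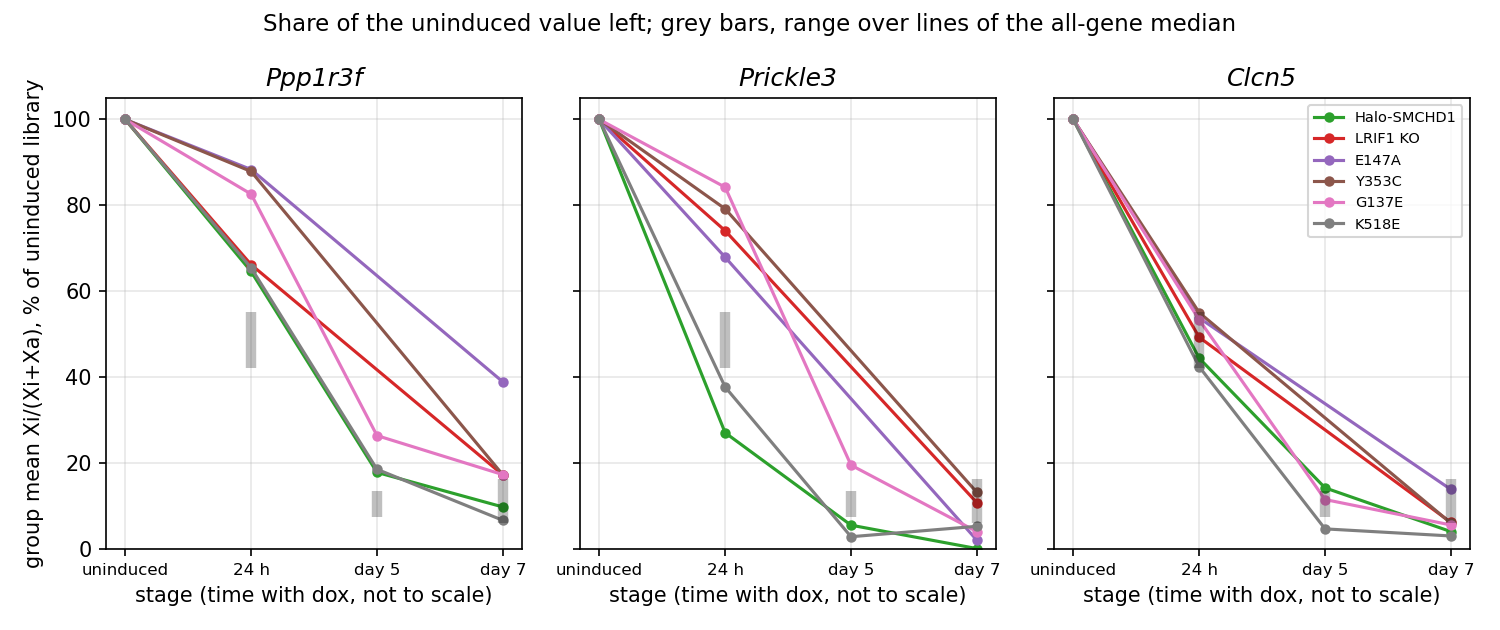
Group mean Xi/(Xi+Xa) of each gene as a percent of the uninduced library of the same line (vertical axis) at each stage (horizontal axis, not to scale), with 1 line of points per cell line; E147A, Y353C and LRIF1 KO have no day 5 libraries. Grey bars give the range over lines of the all-gene median: Clcn5 lies in or near them, Ppp1r3f lies above them at 24 h in every line, and E147A keeps 38.8% of its Ppp1r3f ratio at day 7.

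By day 7 Ppp1r3f remained among the less silenced genes in most lines. Its ratio at day 7 was 0.128 and 0.0822 in iXist-ChrX and 0.141 and 0.224 in SMCHD1 KO. It was 0.0435, 0.0339 and 0.0700 in Halo-SMCHD1, and 0.0758 and 0.0959 in LRIF1 KO. In the loss-of-ATPase lines it was 0.200 and 0.195 in E147A and 0.156 and 0.0175 in Y353C. In the lines whose substitutions raise ATPase activity in vitro it was 0.0962, 0.0909 and 0.0714 in G137E and 0.0200 and 0.0404 in K518E. Both libraries of E147A and of SMCHD1 KO were above every library of the other lines, apart from Y353C replicate 1, which lay between the 2 SMCHD1 KO libraries. The 2 Y353C libraries held the lowest ratio of all day 7 libraries and the highest outside E147A and SMCHD1 KO. In the order of means, E147A (0.198 ± 0.0033, SD, n = 2) and SMCHD1 KO (0.182 ± 0.058, SD, n = 2) overlapped. SMCHD1 KO did not overlap the next line, iXist-ChrX (0.105 ± 0.033, SD, n = 2). The neighbours from iXist-ChrX through Y353C (0.0867 ± 0.098, SD, n = 2) and G137E (0.0862 ± 0.013, SD, n = 3) to LRIF1 KO (0.0858 ± 0.014, SD, n = 2) overlapped in turn. LRIF1 KO did not overlap Halo-SMCHD1 (0.0491 ± 0.019, SD, n = 3), which overlapped K518E (0.0302 ± 0.014, SD, n = 2).

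Clcn5 was strongly silenced at day 7 in every line. Its ratio was 0.0448 and 0.0155 in iXist-ChrX, 0.0286 and 0.0447 in SMCHD1 KO, and 0.00744, 0.0266 and 0.0210 in Halo-SMCHD1. It was 0.0221 and 0.0328 in LRIF1 KO, 0.0398 and 0.0860 in E147A, and 0.0245 and 0.0277 in Y353C. It was 0.0251, 0.0191 and 0.0314 in G137E and 0.0105 and 0.0164 in K518E. E147A was again highest and K518E lowest, but each line overlapped its neighbour in the order of means. All 18 day 7 values of Clcn5 lay below the median of their own library.

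Prickle3 was listed at 0 in 8 of 18 day 7 libraries, including all 3 of Halo-SMCHD1. At day 7 it was 0 and 0.0333 in iXist-ChrX, 0.0800 and 0 in SMCHD1 KO, 0.0400 and 0.0455 in LRIF1 KO and 0.0769 and 0.0333 in Y353C. It was 0.0182 and 0 in E147A, 0, 0.0444 and 0 in G137E and 0.0125 and 0.0364 in K518E. LRIF1 KO, Y353C and K518E were the lines with no library at 0, and all neighbours in the order of means overlapped. The tables give fractions without read counts, so the depth behind a value is unknown and a listed 0 carries no upper limit.

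**Figure D2:**
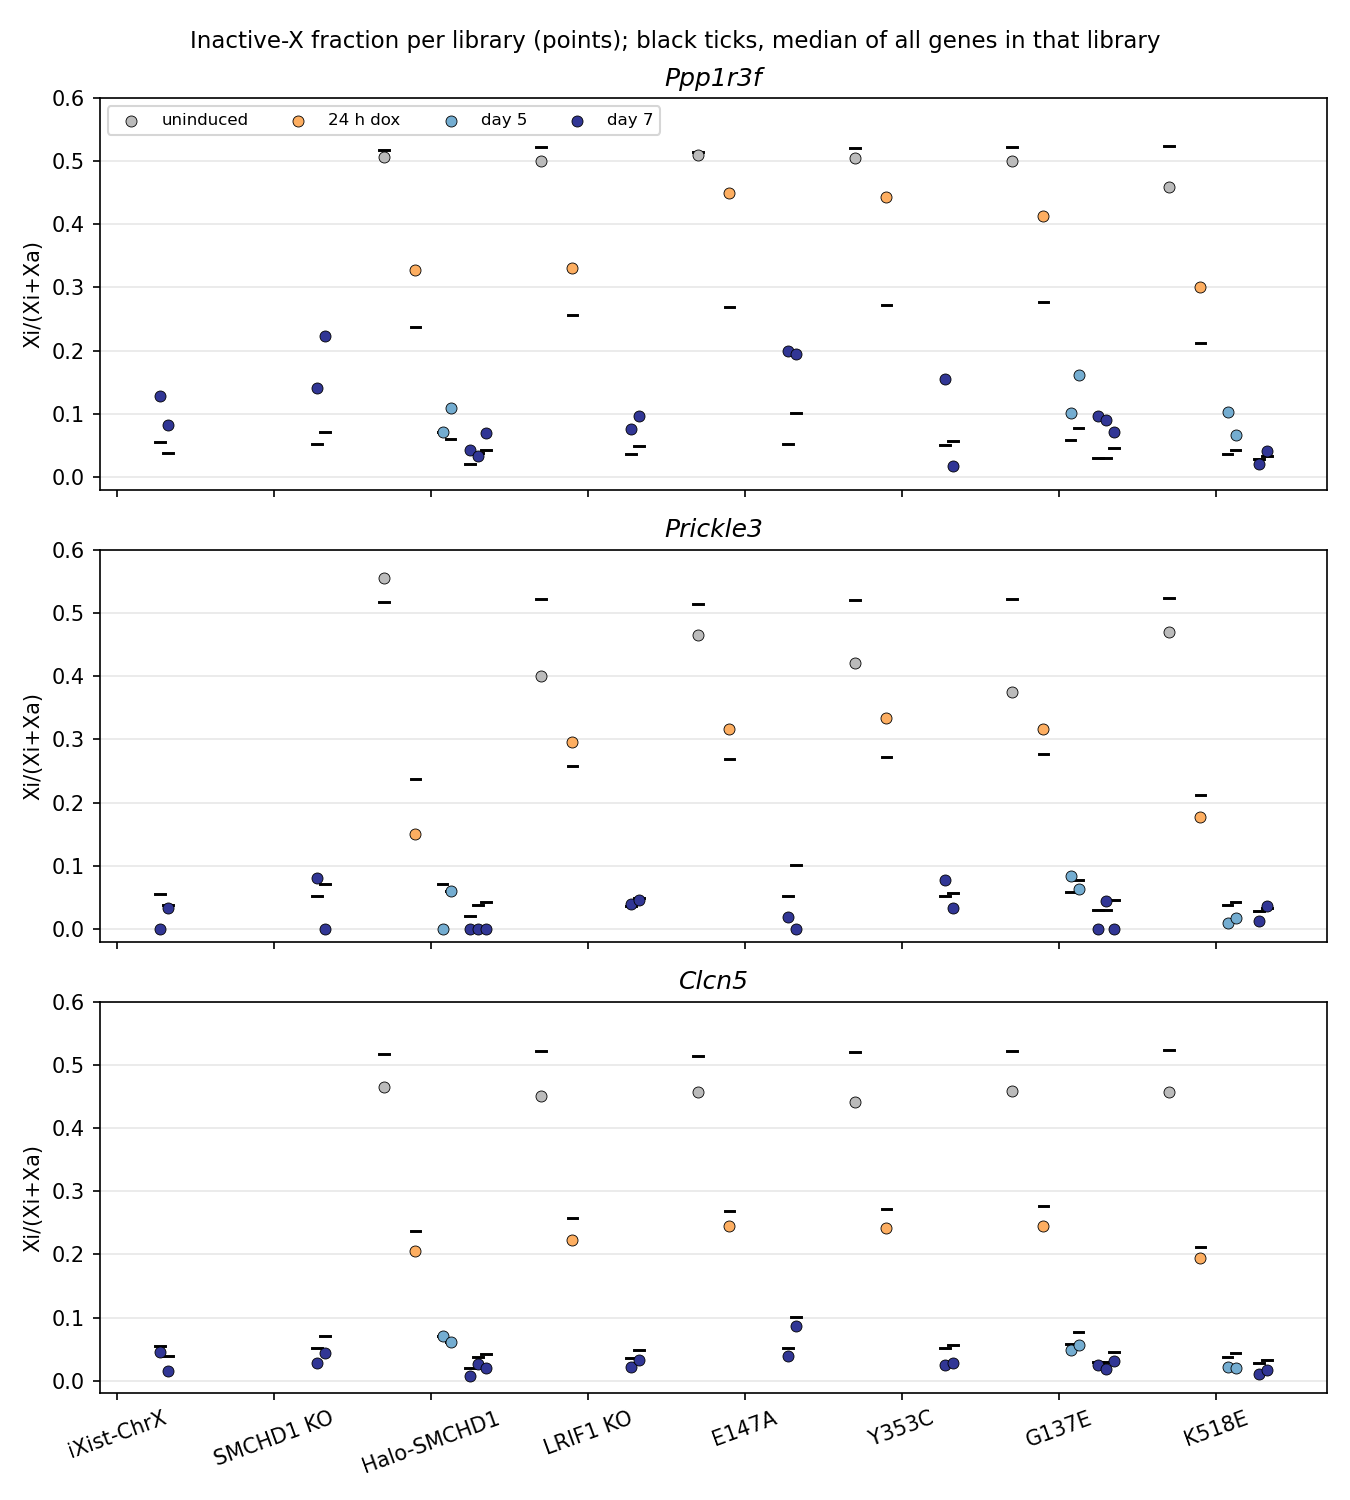
Xi/(Xi+Xa) of each gene (vertical axis) in each of the 36 libraries, by cell line (horizontal axis) and stage (colour), with a black tick at the median of all genes in the same library. At day 7 both Ppp1r3f points of E147A (0.200 and 0.195) and of SMCHD1 KO (0.141 and 0.224) are above all others except Y353C replicate 1 (0.156), Prickle3 has 8 points at 0, and every Clcn5 point is below its tick.

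Against the other genes of the same library, the 3 genes kept different ranks. Over the 24 differentiated libraries Ppp1r3f was above the library median in 21, with a median of 74.5% of genes below it. The 3 exceptions were Halo-SMCHD1 replicate 2, Y353C replicate 2 and K518E replicate 1, all at day 7. Clcn5 was below the median in 23 of 24, with between 19.0% and 50.2% of genes below it. Prickle3 was below the median in 18 of 24, and the 6 libraries above it came from 6 different groups of line and day. The spread between replicates also differed. The pooled SD within groups of the first table was 0.0402 for Ppp1r3f, 0.0274 for Prickle3 and 0.0137 for Clcn5 (11 degrees of freedom each), against a median of 0.0231 over all genes. Of all genes, 24.5% had a smaller spread than Clcn5 and 78.3% a smaller spread than Ppp1r3f. Over the 30 libraries of that table Prickle3 was listed at 0 in 9, and 91.6% of genes were at 0 less often.

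**Figure D3:**
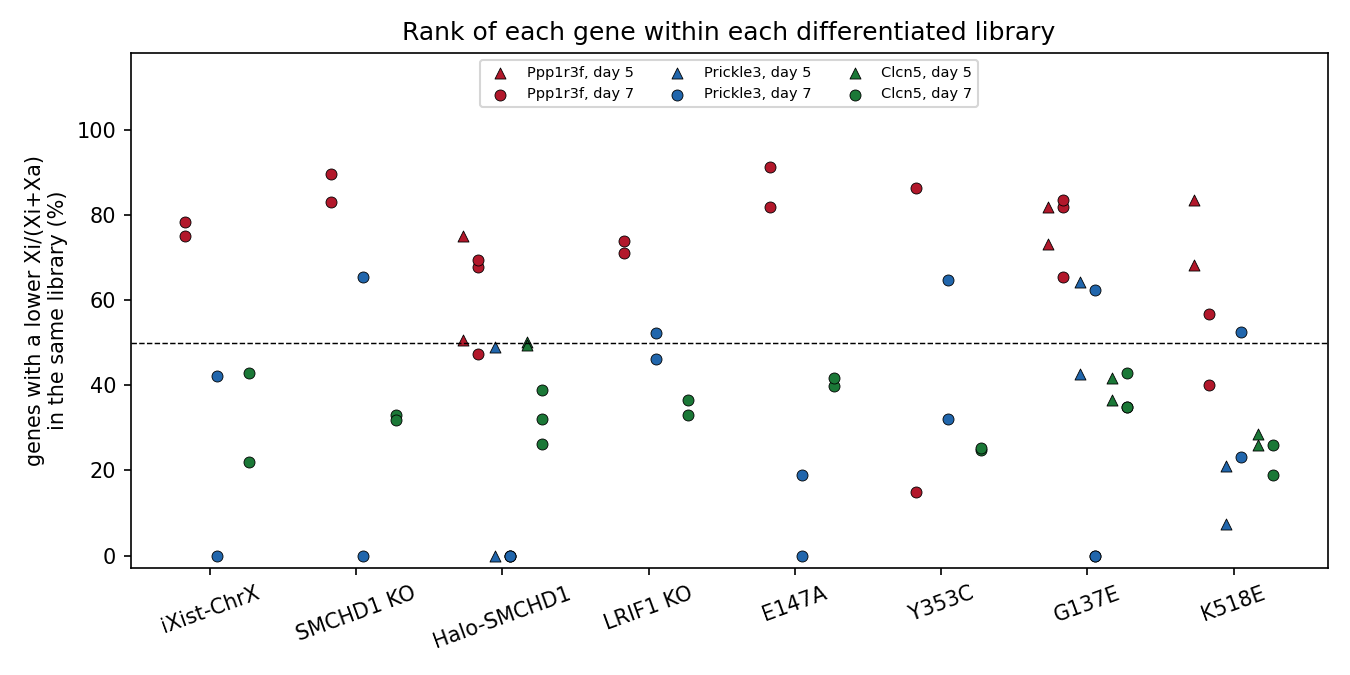
Percent of genes with a lower Xi/(Xi+Xa) in the same library (vertical axis) for each gene in each day 5 (triangles) and day 7 (circles) library, by cell line; the dashed line is the middle rank. Ppp1r3f lies above it in 21 of 24 libraries and Clcn5 runs from 19.0% to 50.2%.

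Across the 20 differentiated libraries of the first table, Clcn5 followed the chromosome-wide median. The log2 odds of its ratio and the library median log2 odds had a Pearson r of 0.90 and a Spearman rho of 0.89, and r was 0.82 without the 2 libraries farthest from the middle of the medians and 0.90 over the 16 day 7 libraries. Of the genes, 95.6% had a lower r. For Ppp1r3f r was 0.51 and rho 0.55 (0.34 without the same 2 libraries), and for Prickle3 r was 0.09 and rho 0.15. These libraries share lines, and each gene is itself among the genes of the median, so the values are descriptions. With the library median subtracted, r was 0.06 between Ppp1r3f and Clcn5, 0.12 between Ppp1r3f and Prickle3 and -0.30 between Prickle3 and Clcn5. Of the other genes, 58.5% had a lower r with Ppp1r3f than Clcn5 had, and 71.4% a lower one than Prickle3 had. With Prickle3, 8.06% had a lower r than Clcn5 had. The r of Ppp1r3f and Clcn5 was -0.26 without the 2 libraries of most extreme Ppp1r3f value. The genes most like Ppp1r3f on that scale were Gm14827 (r = 0.55), the ribosomal protein gene Rps4x (r = 0.52) and Brcc3 (r = 0.47), over the same 20 libraries. Those most like Prickle3 were Rbmx2 (r = 0.60), Cul4b (r = 0.59) and Fam122b (r = 0.55), and those most like Clcn5 were Msn (r = 0.60), Gabre (r = 0.60) and Bcorl1 (r = 0.59). None of these 9 genes starts between 6 and 9 Mb, where 30 of the 249 genes start, the members included. As the 9 are the highest of many correlations, nothing is read from their positions.

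For the comparisons between lines, limma was fitted to the log2 odds of every gene and the Benjamini-Hochberg adjustment ran over the whole table. As the genes were chosen with these contrasts known, the counts of members called are given beside the share of all genes called, and nothing is read from them. The question of the first comparison was whether loss of ATP hydrolysis changes silencing.

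In E147A against Halo-SMCHD1 at day 7, Ppp1r3f was higher by 0.149 in Xi/(Xi+Xa), a difference in log2 odds of 2.10 ± 0.61 (SE). Clcn5 was higher by 0.0445 (log2 odds 1.42 ± 0.41, SE). For both, the lowest E147A library was above the highest of Halo-SMCHD1, which held for 46.2% of all genes. Prickle3 was 0.0182 and 0 in E147A and 0 in all 3 Halo-SMCHD1 libraries. The count of members called by limma (adjusted p under 0.05) was 2 of 3, Ppp1r3f and Clcn5, against 16.1% of the 249 genes. The median difference over all genes was 0.0368. Of all genes, 98.8% had a smaller difference than Ppp1r3f and 58.6% a smaller one than Clcn5. With the median log2 odds of each library subtracted, the differences were 1.05 for Ppp1r3f and 0.36 for Clcn5, and neither was called. The library medians of E147A were 0.0526 for replicate 1 and 0.101 for the other library, whose column carries a replicate number that the labels do not give. Ppp1r3f was 0.200 and 0.195 in them, and Clcn5 0.0398 and 0.0860. Without that second library, or without Halo-SMCHD1 replicate 1, the library of lowest median (0.0198), no member was called. Without E147A replicate 1 or without Halo-SMCHD1 replicate 2, Clcn5 alone was called. With the replicate number as a block, the E147A library of higher median dropped out for want of a matched number, which left 1 library. The log2 odds differences were then 2.10 for Ppp1r3f and 1.07 for Clcn5.

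In SMCHD1 KO against iXist-ChrX, the comparison for loss of the protein itself, Ppp1r3f was higher by 0.0772 (log2 odds 0.87 ± 0.67, SE). Both knockout libraries lay above both parental libraries, as was so for 27.7% of all genes. Clcn5 was higher by 0.00649 (log2 odds 0.31 ± 0.45, SE), with overlapping libraries and below the median difference of all genes, 0.0107. The Clcn5 log2 odds difference was -0.27 without iXist-ChrX replicate 2 and -0.06 with library medians subtracted. Prickle3 overlapped too. No member was called, while 0.803% of genes were called, and no member but 34 of 249 genes were under an unadjusted p of 0.05.

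In Y353C, the other loss-of-ATPase line, against Halo-SMCHD1, Prickle3 was the member whose libraries did not overlap, as was so for 42.2% of all genes. Its ratios were 0.0769 and 0.0333 against 0 in each control library. The Ppp1r3f difference of 0.0376 rested on replicate 1: without it the log2 odds difference was -1.10, and without replicate 2 it was 1.70. Clcn5 was higher by 0.00774, against a median of 0.0181 over all genes. No member was called, while 3.61% of genes were called, and 1 member and 49 of 249 genes were under an unadjusted p of 0.05.

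In LRIF1 KO against Halo-SMCHD1, Ppp1r3f was higher by 0.0367 (log2 odds 0.79 ± 0.61, SE) and Prickle3 was 0.0400 and 0.0455 against 0 in the 3 control libraries. Neither gene's libraries overlapped those of the control, as for 21.3% of all genes. Clcn5 was higher by 0.00909 with overlap, beside a median over all genes of 0.00759. No gene of the table was called (0%), and 1 of the 3 members and 28 of 249 genes were under an unadjusted p of 0.05. Halo-SMCHD1 and iXist-ChrX, the 2 control lines, themselves differed: Ppp1r3f differed by -0.0561 in Halo-SMCHD1 (log2 odds -1.07 ± 0.61, SE) without overlap, as 25.3% of all genes were. No gene was called in that comparison (0%), and 29 of 249, no member among them, were under an unadjusted p of 0.05. The 4 comparisons with Halo-SMCHD1 at day 7 in the first table, and those in the K518E table, share its 3 libraries.

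In the lines whose substitutions raise ATPase activity in vitro, Ppp1r3f moved apart at day 7. It was higher by 0.0370 in G137E (log2 odds 0.80 ± 0.34, SE), with no overlap, as for 3.31% of the 242 genes of that table. The gap was small: the lowest G137E library was 0.0714 and the highest of Halo-SMCHD1 0.0700. In K518E Ppp1r3f differed by -0.0189 (log2 odds -0.59 ± 0.38, SE), with overlap. The median differences of all genes were 0.00142 in G137E and -0.00169 in K518E. Prickle3 was above the 3 zeros of Halo-SMCHD1 in both K518E libraries, a lack of overlap shared by 7.44% of genes, and in 1 of 3 G137E libraries. Clcn5 differed by 0.00684 and -0.00494, with overlap. No gene was called in either comparison (0% in each). At an unadjusted p under 0.05 were 20 genes in G137E, 1 of them a member, and 12 in K518E, no member among them.

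At day 5 Clcn5 was lower in K518E. It was 0.0210 and 0.0209 in K518E against 0.0709 and 0.0606 in Halo-SMCHD1, a difference of -0.0448 (log2 odds -1.35 ± 0.34, SE), and 60.7% of genes were lower without overlap. Ppp1r3f overlapped between the lines, with 0.103 and 0.0667 in K518E and 0.0714 and 0.108 in Halo-SMCHD1. Prickle3 was 0.00877 and 0.0172 in K518E and 0 and 0.0606 in Halo-SMCHD1. The median difference of all genes was -0.0178. With library medians subtracted the Clcn5 difference was -0.74 in log2 odds. No member was called, while 0.413% of genes were called, and 1 member and 31 of 242 genes were under an unadjusted p of 0.05. In G137E at day 5, Clcn5 was 0.0481 and 0.0566, below both controls (12.4% of genes), Prickle3 was 0.0833 and 0.0625, above both (11.6% of genes), and Ppp1r3f was 0.102 and 0.162, overlapping them. No gene was called (0%), and 7 of 242, no member among them, were under an unadjusted p of 0.05.

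**Figure D4:**
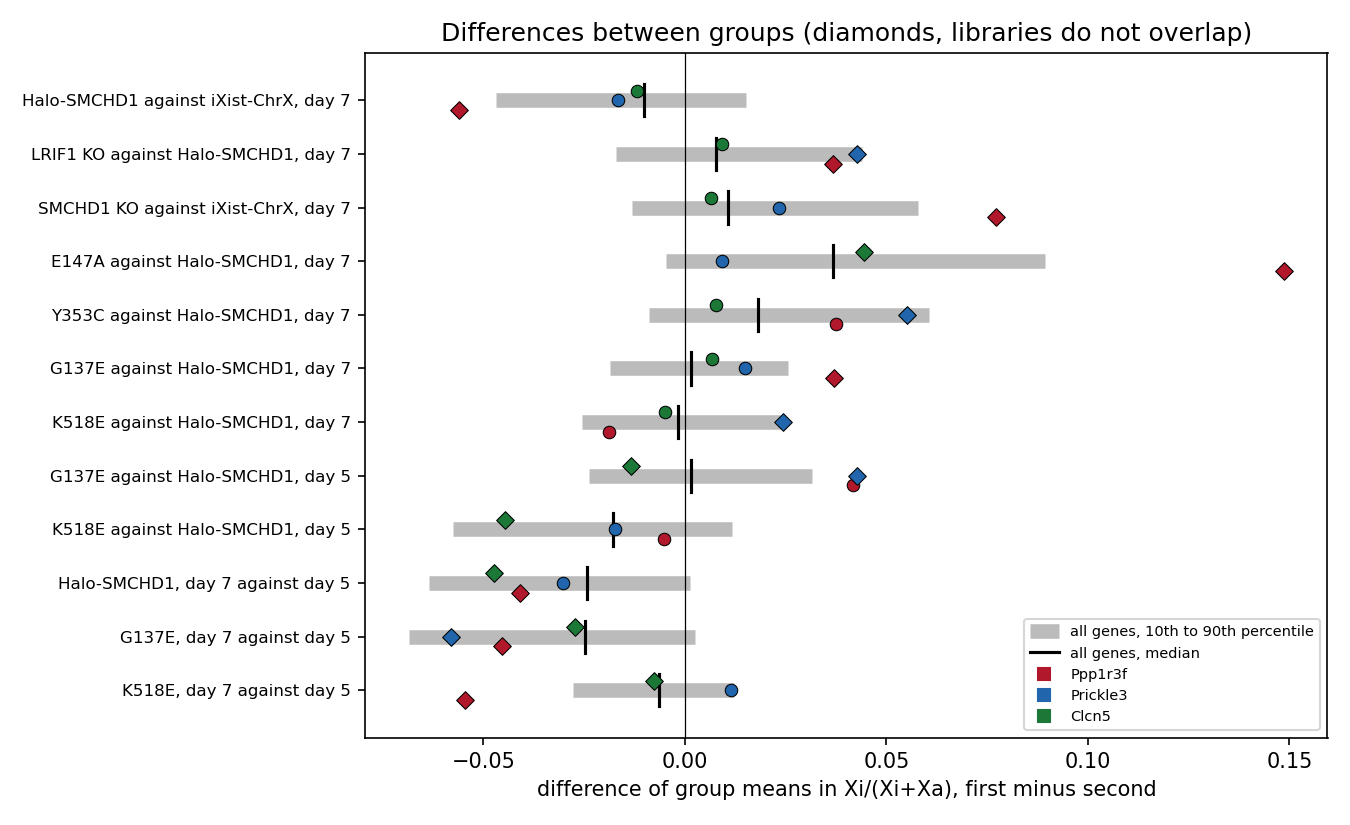
Difference of group means in Xi/(Xi+Xa) (horizontal axis) for each gene in each comparison (rows), with the 10th to 90th percentile range (grey) and median (black) of all genes; diamonds mark libraries that do not overlap. Ppp1r3f lies outside the grey range in 6 comparisons, among them E147A at 0.149, and Clcn5 lies within it in all 12.

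From day 5 to day 7 the mean ratios of the 3 genes were lower in Halo-SMCHD1 and G137E, and in K518E those of Ppp1r3f and Clcn5 were lower and that of Prickle3 higher. In Halo-SMCHD1 Clcn5 fell from 0.0709 and 0.0606 to 0.00744, 0.0266 and 0.0210, a log2 odds difference of -1.55 ± 0.31 (SE). It was the only member called, beside 9.5% of genes called, and it was not called without either day 5 library, with library medians subtracted, with a pseudocount of 0.001 or with only the compared libraries. Prickle3 was 0 and 0.0606 at day 5 and 0 in all 3 libraries at day 7. Ppp1r3f had a log2 odds difference of -0.84 ± 0.38 (SE), and like Clcn5 did not overlap between days, as were 50.8% of genes. In G137E all 3 members were lower at day 7 without overlap, as for 46.3% of genes: the log2 odds differences were -0.61 ± 0.38 (SE) for Ppp1r3f and -0.88 ± 0.31 (SE) for Clcn5. No member was called there, while 7.44% of genes were called, and 2 members and 75 of 242 genes were under an unadjusted p of 0.05. In K518E Ppp1r3f, at -1.34 ± 0.42 (SE), had a larger drop than Clcn5, at -0.43 ± 0.34 (SE), both without overlap, as for 42.1% of genes. Prickle3 was 0.00877 and 0.0172 at day 5 and 0.0125 and 0.0364 at day 7, with overlap. No member was called there, while 0.413% of genes were called, and 1 member and 11 of 242 genes were under an unadjusted p of 0.05. The all-gene median differences between days in Xi/(Xi+Xa) were -0.0243 in Halo-SMCHD1, -0.0249 in G137E and -0.00637 in K518E. Once library medians were subtracted, the log2 odds difference of Ppp1r3f was 0.05 in Halo-SMCHD1, 0.21 in G137E and -1.02 in K518E. That of Clcn5 was then -0.66, -0.06 and -0.10 in the same order of lines. The test of the difference between lines in the change over days called no member in either line. For Clcn5 the K518E change was smaller than that of Halo-SMCHD1 by 1.13 ± 0.47 (SE) in log2 odds, and for G137E by 0.67 ± 0.45 (SE). In the K518E test 1 member and 17 of 242 genes were under an unadjusted p of 0.05, and 0.413% of genes were called. In the G137E test no member and 11 of 242 genes were under it, and 0% of genes were called.

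The genes around the members were examined to place them in their neighbourhood. Of the 30 measured genes that start from 6 to 9 Mb, Suv39h1, an H3K9 methyltransferase gene (0.209 ± 0.068, SD, n = 3), and Slc35a2, a UDP-galactose transporter gene (0.172 ± 0.028, SD, n = 3), had the highest mean ratios in Halo-SMCHD1 at day 7. Prickle3, listed at 0, and Dgkk, a diacylglycerol kinase gene (0, 0.00278 and 0.00376), had the lowest. Ppp1r3f ranked 13 of 30 and Clcn5 27 of 30. In E147A, 28 of the 30 were higher than in Halo-SMCHD1, with a median difference of 0.0453 against 0.0368 over all genes, and 6 of 30 were called, beside 16.1% of all genes. By this difference Ppp1r3f ranked 2 of 30, behind Praf2, and Clcn5 ranked 16. Against the same control at day 7, LRIF1 KO was higher at 27 of the 30, Y353C at 29, G137E at 18 and K518E at 11. Halo-SMCHD1 itself was lower than iXist-ChrX at 29 of 30, with a median difference of -0.0293 against -0.0101 over all genes. SMCHD1 KO was higher than iXist-ChrX at 18 of 30.

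The adjacent genes had ratios of their own. Ccdc22, between Ppp1r3f and Prickle3, was 0, 0.0519 and 0.0413 in Halo-SMCHD1 and 0.0759 and 0.196 in E147A at day 7. 2010204K13Rik, between Clcn5 and Ppp1r3f, was 0.0385, 0.0286 and 0 in Halo-SMCHD1 and 0 and 0.0333 in E147A. Plp2, whose 3′ end overlaps that of Prickle3, was 0.0646, 0.142 and 0.0884 in Halo-SMCHD1 and 0.108 and 0.223 in E147A, all far above the Prickle3 values of 0 to 0.0182 in the same libraries. Dgkk, on the other side of Clcn5, was 0.00483 and 0.0513 in E147A. The E147A library of higher median had the higher ratio for Ccdc22, 2010204K13Rik, Plp2, Dgkk and Clcn5, and the lower ratio for Ppp1r3f and Prickle3.

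**Figure D5:**
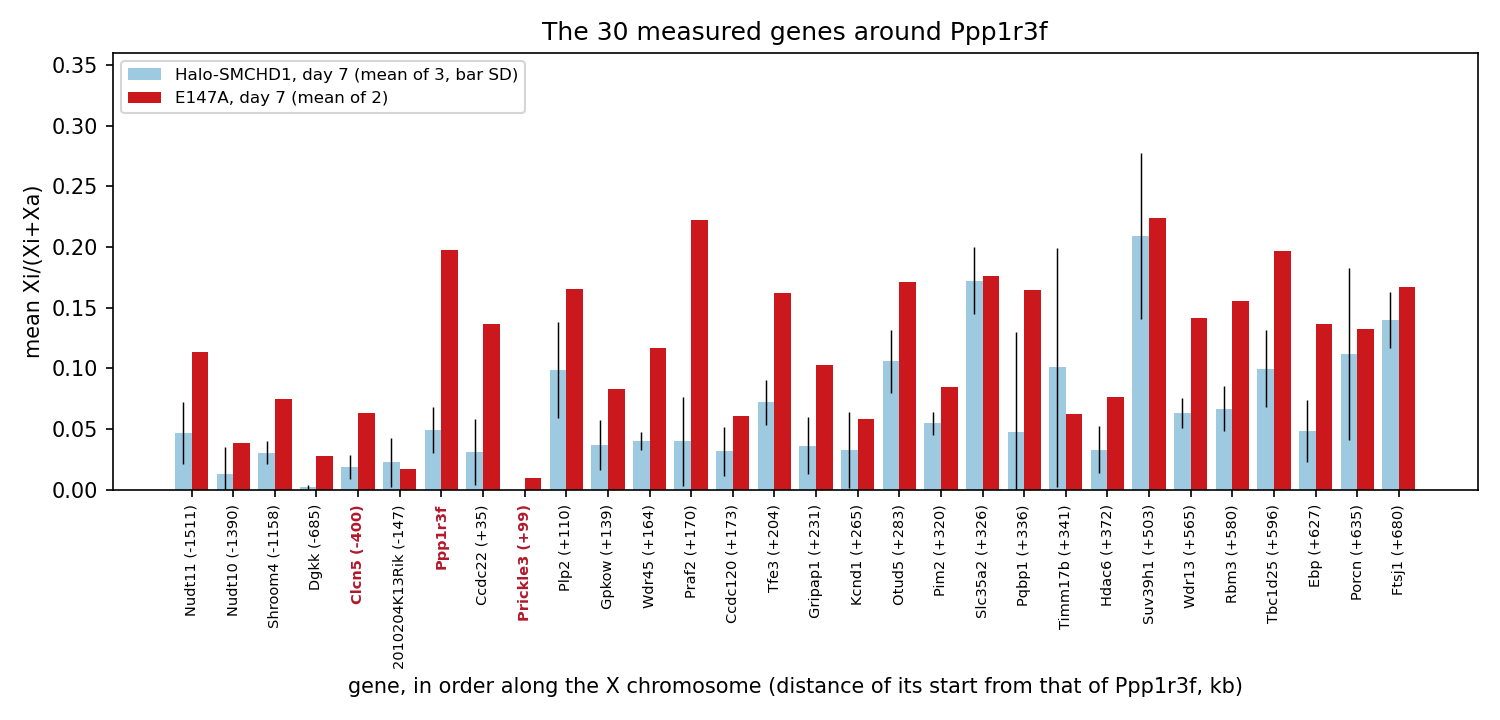
Mean Xi/(Xi+Xa) (vertical axis) at day 7 in Halo-SMCHD1 (blue, n = 3, error bars SD) and E147A (red, n = 2, no error bar) for the 30 measured genes that start from 6 to 9 Mb, in order along the chromosome, with the distance of each start from that of Ppp1r3f in kb. E147A is higher at 28 of 30 genes, and the 3 members (bold) range from 0.00909 for Prickle3 to 0.198 for Ppp1r3f in E147A.

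X-linked genes of the pathways that the members belong to were listed for comparison. For glycogen metabolism, 2 of 3 listed genes were measured: Phka1, a phosphorylase kinase subunit gene, and Lamp2, a lysosomal membrane protein gene. Neither was called in E147A against Halo-SMCHD1, and neither was under an unadjusted p of 0.05 there. Lamp2 was 0.0416 ± 0.0097 (SD, n = 3) in Halo-SMCHD1 and 0.0820 ± 0.052 (SD, n = 2) in E147A. For Wnt signalling and planar cell polarity, 1 of 5 was called higher in E147A by limma: Gpc4, a glypican gene. Its means were 0.0107 and 0.0313, with a log2 odds difference of 1.05 ± 0.31 (SE, limma adjusted p = 0.0389). Of this list 3 of 5 were under an unadjusted p of 0.05, beside 94 of the 249 genes. In this comparison 16.1% of all genes were called, and with library medians subtracted the Gpc4 difference was -0.0062 and it was not called. It was also not called without Halo-SMCHD1 replicate 1. With the replicate block the E147A library of higher median dropped out, which left E147A with 1 library. Porcn, Amer1, Gpc3 and Tbl1x also had higher means in E147A but were not called. For endosomal acidification and trafficking, 0 of 5 were called by limma and 1 was under an unadjusted p of 0.05. Atp6ap2, a proton pump accessory gene, had the highest ratio of that list in both lines, 0.154 ± 0.0081 (SD, n = 3) and 0.224 ± 0.074 (SD, n = 2). The median differences of the 3 lists in E147A were 0.0282, 0.0210 and 0.0211, each below the all-gene median of 0.0368. In LRIF1 KO, SMCHD1 KO, Y353C, G137E and K518E at day 7, no listed gene was called.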

How the data were processed

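ChrRNA-seq libraries were processed by the authors: reads were cleared of rRNA with Bowtie2, aligned with STAR to N-masked mm10, split by strain SNPs and counted per gene with featureCounts, strand-specifically. The deposited value is a fraction, Xi/(Xi+Xa), for genes on which 10 or more reads covered a SNP across the samples compared, per the study. Whether this minimum holds for each library or for their total is not clear from that wording. No read counts accompany it here, so depth is unknown. The first table holds 249 genes in 30 libraries, the other 242 genes in 20 libraries including K518E. Their 14 shared libraries have identical values for the 239 shared genes, and no 2 libraries were identical.

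The 3 genes, the gene lists and the tests were chosen with earlier results of these data known. The genes named are the 3 members, their nearest measured neighbours, the 2 highest and 2 lowest in Halo-SMCHD1 at day 7 of those starting from 6 to 9 Mb, the 3 most like each member by Pearson r, Xist and 3 short lists of X-linked pathway genes. Praf2 was named after its value was seen.

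Groups were taken from the labels. The columns of the iXist-ChrX libraries carry a clone name that the labels do not hold and were matched by day, replicate number and elimination, and 1 of these libraries was rebuilt by the authors from an alignment, per the labels. An E147A column numbered 3 was used as an E147A library without a matched number.

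Log2((r + 0.01)/(1 − r + 0.01)), called log2 odds, was fitted with limma 3.58.1 in R 4.3.3, fitting the day 5 and day 7 libraries of each table together, two-sided and Benjamini-Hochberg adjusted over all its genes. The fit was run on 20 simulated sets with independent noise, in which 60 genes were changed by 3 in log2 odds in E147A. Of the changed genes 87.8% were called, and 4.45% of the calls were unchanged genes. Smaller changes and shifts of a whole library were not simulated, so the outcome does not cover them. Same-numbered libraries deviated from their group means with correlations from -0.28 to 0.15, so the numbers were not taken as pairs. Alternatives are given below.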

Additional observations from a re-analysis of the deposited data

Results flagged for a closer look

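Where 2 lines were each compared with the same Halo-SMCHD1 libraries, cases in which every library of the first line lay above the Halo-SMCHD1 mean and every library of the second below it are listed here. These differences between lines were not tested. At day 7, Ppp1r3f in K518E (mean 0.0302) lay below the Halo-SMCHD1 mean of 0.0491, and was lower than in E147A by a difference of 0.168, than in G137E by 0.0560 and than in LRIF1 KO by 0.0556, all of which lay above it. At day 7, Clcn5 in K518E (mean 0.0134) lay below the Halo-SMCHD1 mean of 0.0184, with differences of 0.0495 to E147A, 0.0140 to LRIF1 KO, 0.0127 to Y353C and 0.0118 to G137E, which lay above it. Each of these K518E groups overlapped the Halo-SMCHD1 libraries. At day 5, Prickle3 lay above the Halo-SMCHD1 mean of 0.0303 in G137E and below it in K518E, a difference of 0.0599, while 1 of the 2 Halo-SMCHD1 libraries was listed at 0. All of these cases have K518E as the lower line.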

How the results depend on the processing

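The call of Ppp1r3f and Clcn5 in E147A against Halo-SMCHD1 (2 members) was lost under 3 settings (0 members each). These were a pseudocount of 0.001, only the compared libraries, and library medians subtracted. Leaving out single Halo-SMCHD1 libraries gave 0 to 2. The replicate block dropped the E147A library without a matched number, so its result for E147A cannot be told apart from the loss of that library. The call of Clcn5 in Halo-SMCHD1 from day 5 to day 7 (1 member) was lost under a pseudocount of 0.001, with only the compared libraries and with library medians subtracted (0 each), and ranged from 0 to 1 with single libraries left out. It was lost without either day 5 library. Other settings added 1 member: Prickle3 in LRIF1 KO with only the compared libraries, Clcn5 in K518E at day 5 with untransformed fractions, and Clcn5 in G137E from day 5 to day 7 with a pseudocount of 0.05 or untransformed fractions. The cause of these changes was not tested. Outside E147A the replicate block changed no count of members (0 called, and 1 in Halo-SMCHD1 from day 5 to day 7). Between days it moved the count over all genes from 23 to 76 in Halo-SMCHD1 and from 18 to 56 in G137E. With 3 pairs, in G137E at day 7, correlations ran from 0.01 to 0.09. Crossing the numbers in SMCHD1 KO against iXist-ChrX, chosen after seeing a correlation of -0.28, called 0 members and 2 genes, as without it.

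The median difference of the 3 genes in Xi/(Xi+Xa) moved by more than the spread between replicates in these cases. With library medians subtracted it became -0.00312 from -0.0167 in Halo-SMCHD1 against iXist-ChrX, 0.0272 from 0.0367 in LRIF1 KO, 0.000993 from 0.0445 in E147A, 0.00725 from -0.0173 in K518E at day 5, -0.00883 from -0.0408 in Halo-SMCHD1 between days and -0.0140 from -0.0455 in G137E between days. As a mean over the 3 genes it was -0.0282 in Halo-SMCHD1 against iXist-ChrX, 0.0674 in E147A, 0.0237 in G137E at day 5 (0.0417 as the median) and -0.0224 in K518E at day 5. With iXist-ChrX as the control it was -0.00267 in LRIF1 KO and -0.00403 in Y353C (0.0376 against Halo-SMCHD1). With single libraries left out the ranges were -0.0331 to -0.0167 in Halo-SMCHD1 against iXist-ChrX, 0.0266 to 0.0455 in LRIF1 KO, 0.0145 to 0.0400 in SMCHD1 KO, 0.0214 to 0.0676 in E147A, 0.00938 to 0.0769 in Y353C, 0.00988 to 0.0222 in G137E and -0.0104 to -0.000798 in K518E at day 7, 0.0118 to 0.0602 in G137E and -0.0396 to 0.0130 in K518E at day 5, and, between days, -0.0593 to -0.0223 in Halo-SMCHD1, -0.0505 to -0.0229 in G137E and -0.0105 to -0.00461 in K518E. The log2 odds difference of Gpc4 in E147A was -0.0062 with library medians subtracted (1.05 without), and its adjusted p (limma) ran from 0.0410 to 0.991 over the alternatives. Of 481 single-gene values under the alternatives, 450 kept their side of the threshold, 26 were weaker, 4 stronger and 1 reversed. Values that stayed uncalled count as kept, and 20 uncalled values changed sign. Depth is unknown, and values at or near 0 set the log2 odds of Prickle3 through the pseudocount.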
